A study of Mus musculus with 4 samples.

Results

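The 10 genes of T cell adhesion followed here were measured in mouse splenic CD4 T cells: the integrin chains Itga4, Itgb1, Itgal, Itgb2, Itga6 and Itgb7, the integrin ligand Icam1, the selectin ligand Selplg, the hyaluronan receptor Cd44 and the junctional adhesion molecule Jaml. They were chosen by symbol, and all 10 were found among the 32285 genes counted. Spleen cells of C57BL6/J mice had been sorted as CD3+CD4+ and kept for 6 hours with beads carrying antibodies to CD3 and CD28, and each library was made with droplet chemistry that reads the 3′ end of transcripts. All 4 libraries had this stimulation, so no unstimulated sample was compared. One female and 1 male library were labelled Irf5-/-, and 1 female and 1 male library were labelled wild type. Irf5 is an interferon regulatory transcription factor. The labels give neither the age of the mice nor the number of mice behind a library, so the p-values below concern these libraries only. With 4 libraries, the p-values and standard errors (SE) draw on a spread estimated over many genes together. They can therefore be small where the libraries of a single gene disagree.

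An integrin is a pair of an alpha and a beta chain. Itga4 pairs with Itgb1 or Itgb7 and binds Vcam1 or Madcam1 on vessel walls, Itga6 pairs with Itgb1 and binds laminin, and Itgal pairs with Itgb2 to form LFA-1, the receptor of Icam1 at the contact with antigen-presenting cells. Selplg carries the sugars that selectins bind during rolling, Cd44 is the classical surface mark of antigen-experienced T cells, and Jaml binds the tight-junction protein Cxadr.

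The promoters of Icam1 and Itgb7 are shown because these genes had contrasting profiles: Icam1 was highest in cells with high Egr3, and Itgb7 was highest in resting cells. Each is given as the 250 bases before the RefSeq start site on the gene's own strand (GRCm38.p6, chr9:21015690-21015939 plus strand for Icam1, chr15:102231936-102232185 minus strand for Itgb7), where a RefSeq promoter was matched for 6 of the 10 genes. Capitals mark the NF-kB-type motif GGAAATTCC in Icam1 and the CACCC box, CACCC or its reverse complement, in Itgb7.
Icam1: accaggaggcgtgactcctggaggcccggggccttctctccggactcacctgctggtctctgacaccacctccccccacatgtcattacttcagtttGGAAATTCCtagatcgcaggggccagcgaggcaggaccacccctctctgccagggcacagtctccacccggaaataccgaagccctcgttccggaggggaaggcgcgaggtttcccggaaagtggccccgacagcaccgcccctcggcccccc
Itgb7: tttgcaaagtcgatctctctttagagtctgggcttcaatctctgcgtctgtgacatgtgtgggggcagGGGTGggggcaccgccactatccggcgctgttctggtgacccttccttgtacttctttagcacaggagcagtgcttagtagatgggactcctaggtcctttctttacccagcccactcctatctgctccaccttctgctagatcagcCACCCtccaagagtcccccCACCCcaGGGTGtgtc
The NF-kB-type motif was found once, 153 bases before the start of Icam1, in none of the other 5 promoters matched, and in 94 of all 32851 promoter windows (0.286%). CACCC was found 4 times each in the windows of Itgb7 and Itga4, 2 times each in those of Itgb1, Icam1 and Jaml, and not in that of Cd44. With 17087 of 32851 windows (52.0%) holding it, its presence is common. Both strands were searched, the motifs share no letters in these windows, and a match describes the letters only.

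The libraries held 28841161 to 55850754 UMIs (unique molecules counted), and 1788 to 6201 cells per library were kept after the filters and the removal of doublets, with medians of 4993 to 9524 UMIs per cell. Droplets under 200 UMIs carried 36.2% of the UMIs in the female library labelled wild type, which also had the fewest cells, against 8.62% to 14.7% in the other libraries. Pairs of libraries shared 2 to 13 cell barcodes. Of the kept cells, 18127 were CD4 T-like: Cd3e was at 166 to 201 CPM and Cd4 at 45.4 to 54.1 CPM (UMIs scaled to the same total in every library) per library, while Cd8a was at 0.046 to 0.326 CPM. The targeted gene went against the labels: Irf5 had 271 and 377 UMIs (8.51 and 8.55 CPM) in the female and male libraries labelled Irf5-/-, and 15 and 41 UMIs (0.984 and 0.981 CPM) in those labelled wild type. The sources used here do not say which part of the gene is deleted, and reads of the 3′ end cannot check a deletion elsewhere in it. Every direction by genotype below is therefore that of the libraries as labelled.

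By class of cell, the highest mean level of each of the 10 genes was between 2.38 times (Selplg) and 20.91 times (Cd44) its lowest. Cells were clustered without the 10 genes and 94 further adhesion genes, and 4 clusters were named from marker lists: resting naive (3936 cells), Egr3-high (1470 cells), memory-like (617 cells) and Foxp3 (729 cells). Egr3 is an immediate response gene of the antigen receptor, and Foxp3 is the defining factor of regulatory T cells. Summed resting naive markers were at 10042 to 10814 CPM over libraries in resting cells and at 4336 to 7235 CPM in the other 3 classes. Foxp3 averaged 481 CPM in its own cluster, and Egr3 averaged 711 CPM in its cluster and 2.78 CPM in resting cells. The memory-like cluster was mixed: its own markers summed to 2207 to 4322 CPM over libraries, and those of the Foxp3 class to 2423 to 3603 CPM there, against 8570 to 10340 CPM in the Foxp3 cluster and 274 to 442 CPM in resting cells. Foxp3 itself averaged 25.8 CPM in it. Innate-like markers summed to 98.6 to 397 CPM in it, against 2.64 to 7.39 CPM in resting cells. It also carried the summed markers of natural killer or gamma-delta cells at 104 to 520 CPM over libraries, against 5.13 to 27.9 CPM in the other 3 classes. At a finer clustering, 107 of its 209, 41 of 64, 99 of 219 and 68 of 125 cells per library stayed memory-like, and nearly all others fell in a cluster led by Plscr1, Gpm6b, Il2, Nrn1 and Penk. The clusters came from the same cells, so levels by class are given as a description with no test.

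**Figure D1:**
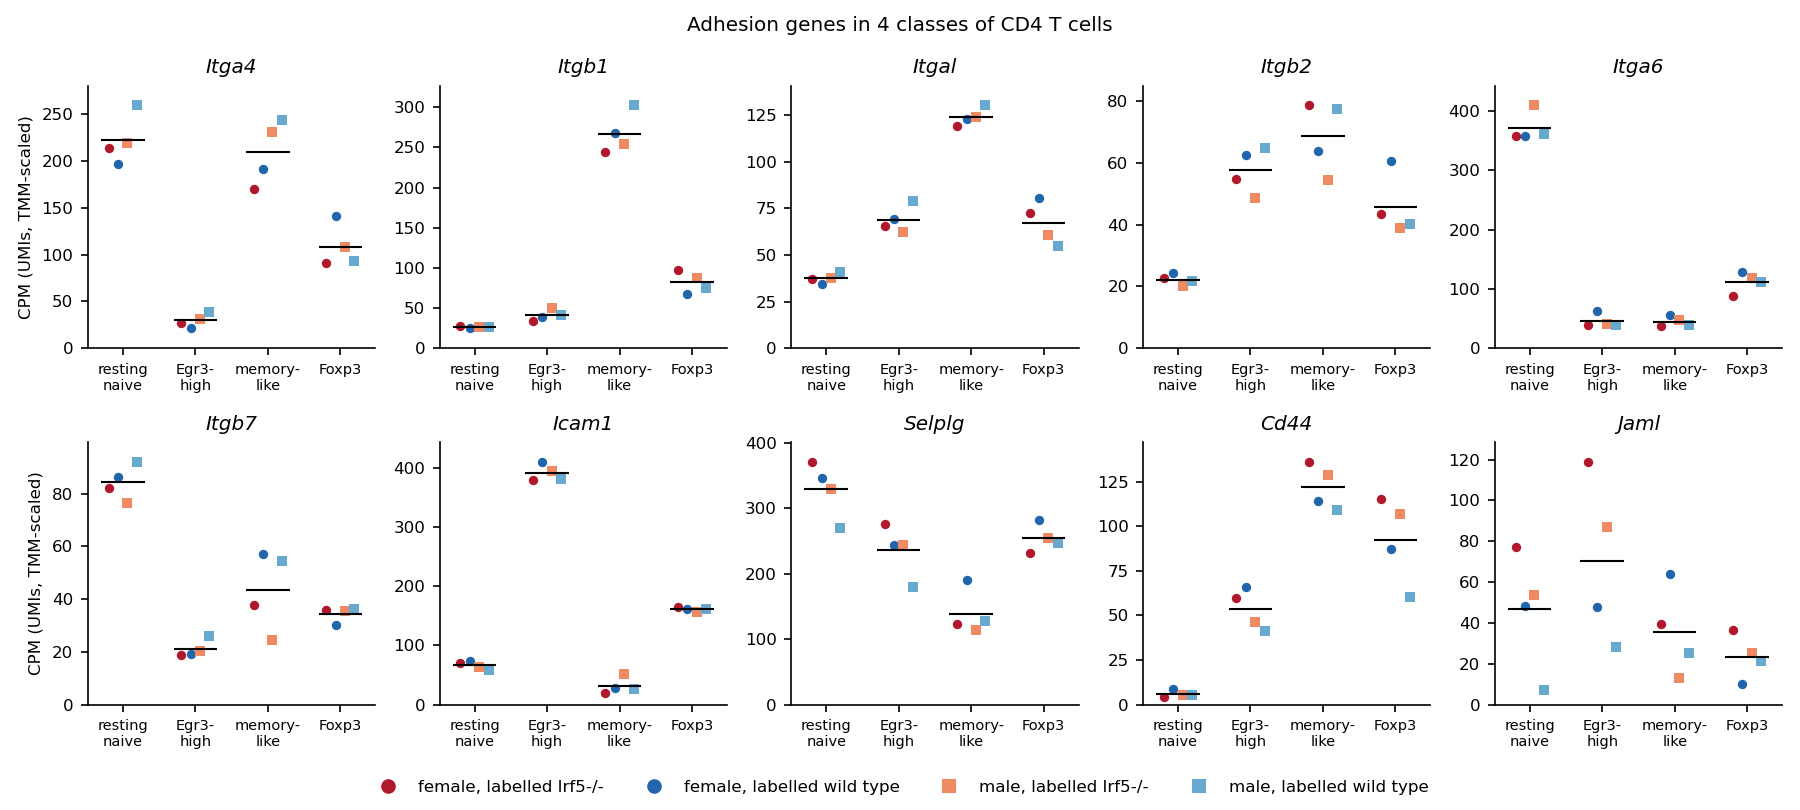
Level of each of the 10 adhesion genes (vertical axes, CPM of summed UMIs with TMM scaling) in the 4 classes of cells (horizontal axes); each point is 1 library, colour and shape give its label and sex, and the line is the mean of 4 libraries. Itga6 and Itgb7 lie highest in resting cells, Icam1 lies highest in Egr3-high cells, and Itgb1 and Itgal lie highest in memory-like cells. The mean of Cd44 is also highest in memory-like cells, but its libraries overlap those of Foxp3 cells. Jaml spreads widely between libraries within a class.

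Among the alpha chains, Itga4 (chromosome 2, 79255426 to 79333123, plus strand; gene coordinates here and below are those of GENCODE on GRCm38) was high in resting and memory-like cells. Its level in resting cells was 214 CPM in the female library labelled Irf5-/-, 197 in the female labelled wild type, 219 in the male labelled Irf5-/- and 259 in the male labelled wild type; per-library values below keep this order. In memory-like cells it was 170, 192, 231 and 244 CPM, which overlapped the resting values. In Egr3-high cells it was 26.5, 22.1, 31.5 and 38.9 CPM, below every resting library, and in Foxp3 cells it lay between, at 109 ± 23 CPM (SD, n = 4). The Egr3-high mean was 0.13 of the resting mean.

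Itga6 (chromosome 2, 71745616 to 71858416, plus strand), the laminin receptor chain, was highest in resting cells, at 357, 358, 409 and 361 CPM. It was at 40.0, 63.4, 41.0 and 39.8 CPM in Egr3-high cells and at 37.1, 55.6, 48.1 and 38.7 CPM in memory-like cells, and these 2 classes overlapped. Foxp3 cells held 112 ± 17 CPM (SD, n = 4), clear of both neighbours in the order. The log2 difference from resting cells was -3.01 ± 0.36 in Egr3-high and -3.04 ± 0.26 in memory-like cells (mean ± SD over 4 libraries). Log2 differences between classes are of CPM + 1, which understates those of low genes.

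Itgal (chromosome 7, 127296260 to 127335138, plus strand), the alpha chain of LFA-1, had the opposite order. It was lowest in resting cells, at 37.4, 34.7, 37.9 and 40.9 CPM, and highest in memory-like cells, at 119, 123, 124 and 130 CPM, with no overlap. Egr3-high cells (69.1 ± 7.2 CPM) and Foxp3 cells (67.4 ± 11.6 CPM; SD, n = 4) lay between and overlapped each other.

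Of the beta chains, Itgb1 (chromosome 8, 128685654 to 128733200, plus strand), the shared partner of many alpha chains, separated all 4 classes. It was 27.2, 25.0, 26.5 and 26.3 CPM in resting cells and 244, 268, 254 and 302 CPM in memory-like cells, a 10.17-fold higher mean. Foxp3 cells held 81.9 ± 13.6 CPM and Egr3-high cells 41.1 ± 6.5 CPM (SD, n = 4). No 2 neighbouring classes overlapped over libraries in the classes drawn by clusters. With classes drawn by marker UMIs, Egr3-high cells (31.1, 47.6, 38.1 and 37.4 CPM) instead lay below resting cells (55.4, 55.2, 58.5 and 52.1 CPM, both without TMM scaling).

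Itgb2 (chromosome 10, 77530252 to 77565708, plus strand), the beta chain of LFA-1, followed the order of Itgal. It was 22.6, 24.4, 20.2 and 21.6 CPM in resting cells, and each of the other 3 classes lay above every resting library. Memory-like (68.6 ± 11.5 CPM), Egr3-high (57.6 ± 7.4 CPM) and Foxp3 cells (45.8 ± 10.0 CPM; SD, n = 4) overlapped with their neighbours in the order.

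Itgb7 (chromosome 15, 102215995 to 102231944, minus strand), the beta chain of the gut-homing receptor and the gene whose promoter is printed above, was 82.3, 86.4, 76.3 and 92.2 CPM in resting cells. It was lowest in Egr3-high cells, at 18.9, 19.2, 20.1 and 25.9 CPM. Memory-like cells varied widely, at 37.8, 57.2, 24.6 and 54.3 CPM, and overlapped the Foxp3 cells (34.5 ± 2.8 CPM; SD, n = 4). With both classes drawn by marker UMIs in thinned cells, the log2 difference of Foxp3 from resting cells was 0.207 instead of -1.27. The resting class then held 6217 cells, 2331 of them (37.5%) from the clusters without a class name described below. Its Itgb7 mean was 35.2 CPM instead of 74.1, and that of Foxp3 cells 48.1 instead of 38.8 CPM (without TMM scaling).

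Icam1 (chromosome 9, 21015985 to 21028817, plus strand), the ligand of LFA-1 that T cells also display to each other, was highest in Egr3-high cells, at 379, 410, 394 and 380 CPM. Resting cells held 70.2, 73.3, 63.6 and 58.4 CPM, so the Egr3-high mean was 5.89 times the resting mean. Foxp3 cells held 165, 161, 157 and 161 CPM, and memory-like cells were lowest, at 20.01, 28.6, 51.6 and 26.1 CPM. No neighbouring classes overlapped with TMM scaling. Without it, memory-like cells (23.5, 33.4, 59.8 and 29.7 CPM) and resting cells (63.2, 65.2, 56.9 and 49.0 CPM) overlapped, and per cell they held 0.269 ± 0.112 and 0.278 ± 0.064 UMIs (SD, n = 4).

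Selplg (chromosome 5, 113818536 to 113832644, minus strand) had the smallest ratio of highest to lowest class among the 10 genes, 2.38. Its mean was 329 ± 43 CPM in resting, 254 ± 21 in Foxp3, 236 ± 41 in Egr3-high and 138 ± 35 in memory-like cells (SD, n = 4), and each neighbouring pair in this order overlapped. Memory-like cells, at 122, 190, 113 and 128 CPM, lay below every resting library, which ranged from 270 to 371 CPM. With classes drawn by marker UMIs, resting cells were lower, at 147 ± 24 CPM, against 230 ± 49 in Egr3-high and 259 ± 41 CPM in Foxp3 cells (without TMM scaling). The resting class so drawn is the one described for Itgb7. Per cell of the clusters, resting cells held 1.36 ± 0.25 and Foxp3 cells 1.74 ± 0.42 UMIs.

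Cd44 (chromosome 2, 102811141 to 102901665, minus strand) was lowest in resting cells, at 4.2, 8.5, 5.3 and 5.3 CPM. It was 60.0, 66.2, 46.1 and 41.1 CPM in Egr3-high, 136, 114, 129 and 109 CPM in memory-like, and 116, 87.4, 107 and 60.6 CPM in Foxp3 cells. Each of these 3 classes lay above every resting library, while memory-like overlapped Foxp3 cells and Foxp3 overlapped Egr3-high cells. The memory-like mean was 20.91 times the resting mean. That resting mean came from only 15, 15, 29 and 27 UMIs, and free RNA alone would give up to 2.14 CPM. Counts at the 3′ end do not tell the splice forms of Cd44 apart.

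Jaml (chromosome 9, 45079183 to 45108534, plus strand) had no order of classes that held over libraries. It was 77.0, 48.3, 53.9 and 7.3 CPM in resting cells and 119, 48.0, 86.8 and 28.1 CPM in Egr3-high cells. Memory-like cells had 39.3, 64.0, 12.9 and 25.3 CPM, and Foxp3 cells 36.4, 10.1, 25.3 and 21.5 CPM. The male library labelled wild type stood apart in resting cells.

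Counted over the 10 genes, a class was called apart from resting cells where its 4 libraries did not overlap the resting 4 and the mean log2 difference was at least 1 in size. In Egr3-high cells 3 genes were higher (Cd44, Icam1 and Itgb2), against 20.5% of 6096 genes with at least 20 CPM in either class, and 3 were lower (Itga6, Itga4 and Itgb7), against 20.9%. In memory-like cells 4 were higher (Cd44, Itgal, Itgb1 and Itgb2; 12.7% of 6094 genes), and 4 were lower (Itga6, Selplg, Icam1 and Itgb7; 11.9%). Of these 4, Itga6 alone was called at the finer clustering, in thinned cells and without TMM scaling, and 2 were called without the female library labelled Irf5-/-. In Foxp3 cells 3 were higher (Cd44, Itgb1 and Icam1; 13.1% of 6060 genes) and 3 were lower (Itga6, Itga4 and Itgb7; 13.5%). The median log2 difference of the 10 genes was 0.695, -0.156 and 0.220 in the 3 classes in turn, and that of all genes was -0.028, -0.118 and -0.129.

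The TMM factors differed from those of resting cells by -0.018, 0.398 and 0.356 on the log2 scale in the 3 classes in turn. A higher factor lowers the level, so TMM scaling lowered memory-like and Foxp3 cells against resting cells. With CPM of the summed UMIs alone, 4 genes were higher and 1 lower in memory-like cells, 5 were higher and 1 lower in Foxp3 cells, and Itga4 and Jaml changed sign in memory-like cells (Itga4 from -0.095 to 0.301, Jaml from -0.216 to 0.163). Classes drawn from marker UMIs, resting cells included, gave 1 gene higher and 0 lower in Egr3-high cells, and 0 lower in Foxp3 cells.

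Of the 94 further adhesion genes, 42 to 45 reached 20 CPM in each comparison with resting cells. In Egr3-high cells 4 of 42 were higher and 18 lower, in memory-like cells 6 of 45 were higher and 11 lower, and in Foxp3 cells 8 of 44 were higher and 10 lower. Their median log2 difference was -0.914, -0.146 and -0.253 in turn. One group of these genes was listed under integrin activation and adaptors. Not every gene in it switches integrins to their binding state, Cd81 and Cytip among them, so its counts give no direction for that switch. Of 24 genes of this group at this level, 11 were lower and 1 higher in Egr3-high cells, where 20.9% and 20.5% of all genes at this level were. In memory-like cells 9 of 24 were lower and 0 higher (11.9% and 12.7% of all genes), and in Foxp3 cells 6 of 23 were lower and 1 higher (13.5% and 13.1%). The lists were not tested against other genes.

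Fyb, an adaptor between the antigen receptor and integrins, was 1431 ± 162 CPM in resting and 301 ± 50 CPM in Egr3-high cells (SD, n = 4). Rasgrp2, which activates Rap1 upstream of integrins, was 55.2 ± 6.4 CPM in resting, 11.5 ± 2.6 in Egr3-high and 9.0 ± 1.5 CPM in Foxp3 cells. Rap1a itself was higher in Egr3-high cells, at 273 ± 17 against 114 ± 4 CPM. Rasgrp1, which couples the antigen receptor to Ras, was 421 ± 96 CPM in resting and 83.4 ± 14.2 CPM in memory-like cells, and the adaptor Skap1 was 384 ± 29 in resting and 79.2 ± 8.1 CPM in Foxp3 cells.

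Pecam1, an adhesion molecule of the immunoglobulin family, was 199 ± 18 CPM in resting, 51.8 ± 8.4 in memory-like and 36.9 ± 6.1 CPM in Foxp3 cells (SD, n = 4). Srgn, the granule proteoglycan that can bind Cd44, was 3927 ± 167 CPM in Egr3-high against 466 ± 49 CPM in resting cells, and Cd6, a receptor of Alcam, was 209 ± 19 against 53.4 ± 1.7 CPM. Alcam was 76.0 ± 16.8 CPM in memory-like and 4.96 ± 0.69 CPM in resting cells.

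Itgav and Itgb8, integrin chains outside the 10, were higher in Foxp3 cells. Itgav, which pairs with Itgb8 to activate latent TGF-beta, was 126 ± 12 CPM in Foxp3, 90.0 ± 12.2 in memory-like and 15.6 ± 1.4 CPM in resting cells. Itgb8 was 97.1 ± 9.4 CPM in Foxp3 and 0.524 ± 0.472 CPM in resting cells. Cd81, a tetraspanin that associates with integrins, was 112 ± 32 CPM in Foxp3 and 21.4 ± 4.6 CPM in resting cells, and Chst2, a sulfotransferase of selectin ligands, was 29.7 ± 5.8 CPM in memory-like and 0.619 ± 0.392 CPM in resting cells.

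Most stimulated cells, 11088 of the 18127, fell in 5 clusters without a class name. One of these, with 2559 cells led by Ccl4, Tnfsf11 and Il2, held 10 Egr3-high markers among its 30 leading genes and was kept apart because Egr3 was not among its 10 leading genes. Summed over the 5 clusters, Itgb7, Itga6, Itga4 and Selplg were far below resting cells. Itgb7 was 1.68, 1.78, 1.36 and 1.09 CPM per library (CPM without TMM scaling, in this paragraph and the next) against 74.1 ± 4.2 CPM in resting cells (SD, n = 4). Itga6 was 10.2, 9.25, 10.6 and 6.97 CPM against 327 ± 27, and Itga4 was 12.2, 10.1, 11.1 and 8.65 CPM against 195 ± 17. Selplg was 23.0, 20.9, 19.9 and 13.7 CPM against 291 ± 46. For these 4 genes no library of the unnamed clusters reached the lowest resting library. The smallest of the 5 clusters, 484 cells led by Cdkn1a and Trat1, kept more of them: Itga4 at 36.5 to 63.7 CPM, Itga6 at 35.3 to 62.8 CPM and Selplg at 42.2 to 97.9 CPM, with Itgb7 at 2.28 to 7.39 CPM from 2 to 8 UMIs per library.

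The unnamed clusters held more RNA per cell, with cluster medians of 0.994 to 1.363 times the library medians against 0.644 in resting cells. Counted per cell, Itgb7 was still 27.5 times lower (0.013 against 0.359 UMIs per cell), Itga6 19.2 times, Itga4 10.2 times and Selplg 8.07 times. The genes of LFA-1, Itgb1 and Cd44 were higher than in resting cells, with no overlap of libraries: Itgb1 was 64.2 ± 2.8 against 23.1 ± 1.1 CPM, Itgal 73.5 ± 4.6 against 33.2 ± 1.6, Itgb2 37.6 ± 2.1 against 19.6 ± 1.8 and Cd44 33.4 ± 14.0 against 5.15 ± 1.66 CPM (SD, n = 4). Icam1 was not uniform among these clusters. It averaged 8.9 CPM in the cluster led by Itm2a and Phlda3 and 17 CPM in that led by Ybx3 and Spry1, but 66 CPM in that led by Il12rb2 and Filip1l, 71 CPM in that led by Cdkn1a and Trat1 and 75 CPM in that led by Ccl4, Tnfsf11 and Il2. Summed over the 5 clusters it was 38.2 ± 3.6 against 58.6 ± 7.3 CPM in resting cells (SD, n = 4), with no overlap, but 0.347 ± 0.099 against 0.278 ± 0.064 UMIs per cell. In the cluster led by Ccl4 Selplg averaged 28 CPM and Itga4 9.2 CPM, so it differed from the Egr3-high class (340, 206 and 26 CPM for the 3 genes) in the adhesion genes left out of clustering; this difference was not tested.

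**Figure D2:**
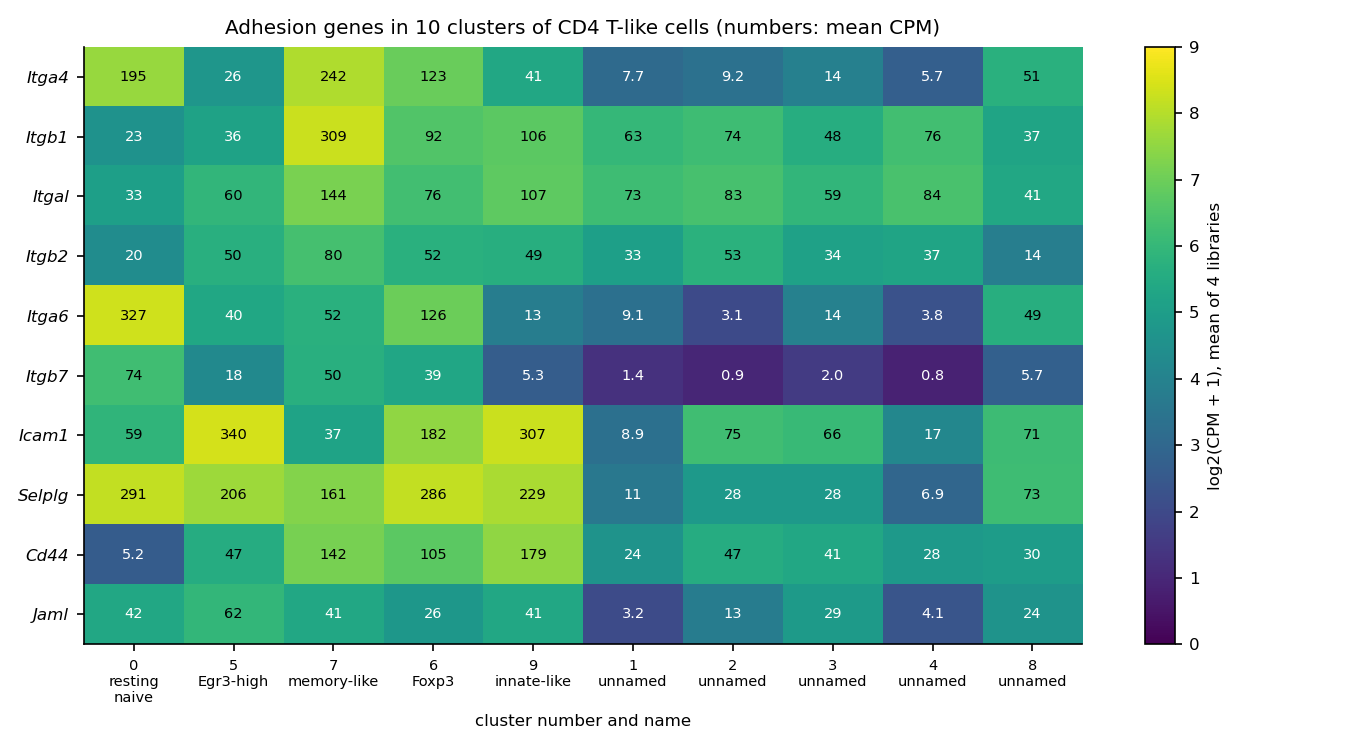
Mean CPM over 4 libraries (CPM of summed UMIs without TMM scaling; colour, log2 of CPM + 1) of the 10 adhesion genes (rows) in the 10 clusters of CD4 T-like cells (columns, with cluster number and name). Along each row, Itgb7 goes from 74 CPM in resting cells to between 0.8 and 5.7 CPM in the 5 unnamed clusters, and Icam1 goes from 340 CPM in Egr3-high cells to 8.9 CPM in cluster 1.

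By genotype label, over all CD4 T-like cells, Jaml was higher in the libraries labelled Irf5-/-, and the other 9 adhesion genes did not pass the test. The edgeR quasi-likelihood fit with a sex term tested 12382 genes and called 160 (1.29%) at an adjusted p under 0.05, of which 120 were higher and 40 lower in the libraries labelled Irf5-/-. It called 1 of the 10 genes. Sums over all cells mix the classes, so fewer cells of a type and less RNA per cell cannot be told apart in them.

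Jaml was 30.1 CPM (959 UMIs) in the female library labelled Irf5-/-, 20.9 CPM (319 UMIs) in the female labelled wild type, 23.8 CPM (1048 UMIs) in the male labelled Irf5-/- and 7.77 CPM (325 UMIs) in the male labelled wild type. Both libraries labelled Irf5-/- lay above both labelled wild type, and the male library labelled wild type was far below the others. The log2 fold change was 1.07 (SE 0.16, edgeR adjusted p = 7.61e-04), with 0.525 between the female libraries and 1.61 between the male ones. Without the male library labelled wild type it was 0.353 (adjusted p = 0.337, no sex term), and DESeq2 gave 1.06 with adjusted p = 1. The call was also lost without the sex term (adjusted p = 0.773) and without either library labelled Irf5-/- (0.986 without the female, 0.315 without the male).

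Genes of the interferon response were, like Jaml, highest in the female library labelled Irf5-/- and lowest in the male labelled wild type: the summed level of 7 such markers, all detected, was 254, 186, 168 and 96.0 CPM in the order above. Their part in the difference was not tested. The level of Jaml that free RNA alone would give was at most 0.7 CPM.

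The other 9 genes had log2 fold changes between -0.149 and 0.274. Selplg had the largest, 0.274 (SE 0.090, edgeR adjusted p = 0.226), with 93.5, 86.9, 89.0 and 65.4 CPM, so the libraries did not overlap but the female pair differed little. Itgal, at 68.8, 74.7, 64.6 and 72.5 CPM, was lower in both libraries labelled Irf5-/- by a log2 fold change of -0.149 (SE 0.081, edgeR adjusted p = 0.675). Itgb7, at 14.7, 15.4, 14.2 and 16.2 CPM, had -0.142 (SE 0.102, edgeR adjusted p = 0.819).

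Itga4 (45.7, 42.5, 50.4 and 51.1 CPM), Itgb1 (65.1, 66.0, 68.1 and 65.3 CPM) and Itgb2 (38.9, 37.0, 36.2 and 39.3 CPM) overlapped between labels, with log2 fold changes of 0.033, 0.018 and -0.035 and edgeR adjusted p from 0.971 to 0.986. Itga6 overlapped too, at 54.8, 57.3, 67.4 and 55.6 CPM (log2 fold change 0.111, edgeR adjusted p = 0.857). Icam1, at 67.1, 76.3, 73.1 and 62.6 CPM, and Cd44, at 42.5, 52.5, 31.5 and 27.6 CPM, had opposite signs in the sexes and fitted changes of 0.023 and -0.056.

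**Figure D3:**
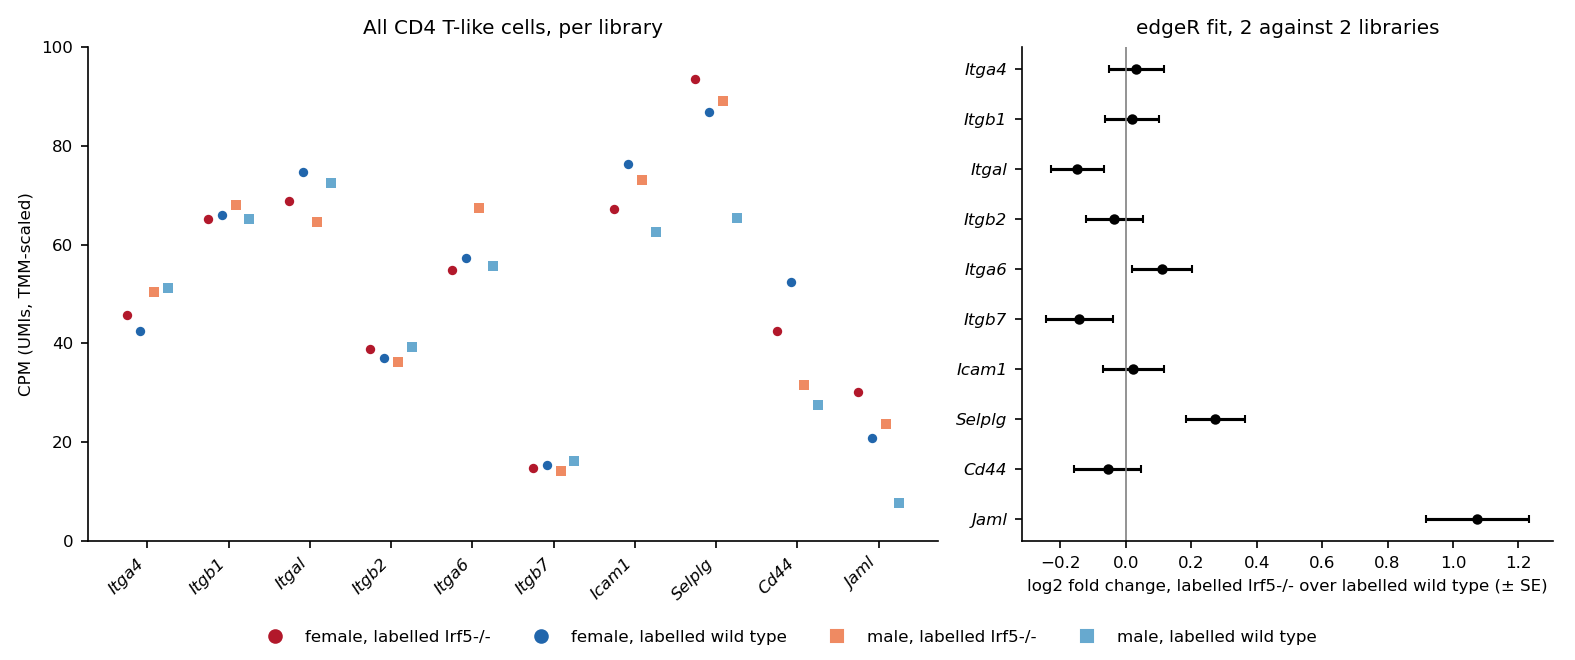
Left, CPM with TMM scaling (vertical axis) of the 10 adhesion genes (horizontal axis) over all CD4 T-like cells, with 1 point per library, coloured by label and shaped by sex; right, the log2 fold change (horizontal axis) of libraries labelled Irf5-/- over those labelled wild type in the edgeR fit of 2 against 2 libraries, with bars of ± 1 SE. Jaml lies at 1.07 and the other 9 genes lie between -0.15 and 0.27.

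Among the further adhesion genes, 68 were tested by label and 4 were called, with a median log2 fold change of 0.035 beside 0.021 for the 10 genes and 0.003 for all genes. Itgb8 was higher in the libraries labelled Irf5-/- (5.75, 2.36, 5.22 and 2.70 CPM; log2 fold change 1.07, SE 0.17, edgeR adjusted p = 1.56e-03), as was Cd81 (19.3, 9.64, 15.1 and 10.3 CPM; 0.737, SE 0.117, adjusted p = 1.66e-03). Foxp3 cells made up 4.67% (exact 95% binomial interval 4.15 to 5.25), 2.32% (1.67 to 3.13), 4.69% (4.17 to 5.24) and 2.91% (2.43 to 3.45) of CD4 T-like cells in the same order. Without the Foxp3 cluster, Itgb8 was no longer called (1.06, adjusted p = 0.35), and Cd81 still was (0.588, adjusted p = 0.0435). Without both Foxp3 and memory-like cells Itgb8 was at 0.623 (adjusted p = 0.897) and Cd81 at 0.611 (adjusted p = 0.00221).

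Chst2 was lower in the libraries labelled Irf5-/- (8.92, 12.7, 7.72 and 14.1 CPM; log2 fold change -0.717, SE 0.1202, edgeR adjusted p = 2.57e-03). Itga1, a collagen receptor chain, was also called lower (edgeR adjusted p = 0.0294), from 2, 7, 0 and 14 UMIs, and its call was lost in most alternatives. None of the 4 genes was called with DESeq2 (adjusted p from 0.197 to 1) or without the sex term (adjusted p from 0.121 to 0.395). Cd81, Chst2 and Itgb8 were each lost without the male library labelled wild type (adjusted p = 0.0844, 0.105 and 0.0601) and with equal cells and depth (0.276, 0.751 and 0.751). Without the female library labelled Irf5-/- Cd81 and Itgb8 were lost (0.219 and 0.117), and without the male one Chst2 and Itgb8 were (0.197 and 0.0753).

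Within the classes, Jaml was the one adhesion gene of the 10 called by label. In resting cells 76 of 9929 genes were called (0.765%), Jaml among them with a log2 fold change of 1.66 (SE 0.20, edgeR adjusted p = 2.59e-08) on the values given above. Without the male library labelled wild type it was 0.399 (adjusted p = 0.728), without the female labelled wild type 3.16 (adjusted p = 1.09e-07), and DESeq2 gave an adjusted p of 1. The call was also lost without the sex term (adjusted p = 0.947) and without either library labelled Irf5-/- (adjusted p = 1 for each). In Egr3-high cells 17 of 8055 genes were called (0.211%), with Jaml at 1.46 (SE 0.16, edgeR adjusted p = 5.29e-04). There DESeq2 called it too (1.45, adjusted p = 0.0295), and it was still called without the male library labelled wild type (1.04, adjusted p = 2.51e-04). It was lost without the sex term (adjusted p = 0.154) and without the female library labelled Irf5-/- (adjusted p = 0.075).

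Summed interferon-response markers ranged over libraries from 323 to 899 CPM in resting and from 299 to 933 CPM in Egr3-high cells, in both highest in the female library labelled Irf5-/- and lowest in the male labelled wild type. The resting class held 1190, 360, 1386 and 1000 cells in the order of libraries above, and 703, 221, 976 and 850 at the finer clustering. There a separate interferon-responding cluster, led by Ifit3 and Ifit1, held 481, 134, 399 and 142 cells. The part of these markers and of this uneven split in the Jaml difference was not tested.

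In memory-like cells, edgeR called 40 of 8063 genes (0.496%) and 0 of the 10, with 3 of the 10 at an unadjusted p under 0.05. DESeq2 called 4 genes and 0 of the 10, with 0 of the 10 at an unadjusted p under 0.05. The log2 fold change of Jaml there was -0.831 (SE 0.267, edgeR adjusted p = 0.241), and Itgb7 came nearest to the threshold (-0.911, SE 0.244, adjusted p = 0.0806). Single libraries decided these values. Without the female library labelled Irf5-/- both passed (-1.67, adjusted p = 0.00589 for Jaml; -1.19, adjusted p = 0.0356 for Itgb7). Jaml was at -0.024 (adjusted p = 0.999) without the female library labelled wild type, at -0.056 (adjusted p = 1) without the male labelled Irf5-/- and at -1.37 (adjusted p = 0.462) without the male labelled wild type. Itgb7 was at -0.569 (adjusted p = 1) without the male library labelled Irf5-/-. The summed markers of natural killer or gamma-delta cells in this class were 379, 520, 104 and 249 CPM in the order of libraries above, its innate-like markers 224, 397, 98.6 and 130 CPM, and its own markers 3044, 4322, 2207 and 2992 CPM. All 3 were in the same order of libraries as Jaml. The part of this mixture in these values was not tested. In Foxp3 cells, edgeR called 6 of 7707 genes (0.0779%) and 0 of the 10, with 1 of the 10 at an unadjusted p under 0.05. DESeq2 called 2 genes there and 0 of the 10, with 0 of the 10 at an unadjusted p under 0.05. The female library labelled wild type gave 41 cells to this class.

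Whether the difference by label was unlike in the 4 classes was tested with the class by label terms together. The edgeR fit called 6 of 9456 genes (0.0635%) and 0 of the 10, with 4 at an unadjusted p under 0.05. Jaml came nearest, with a difference of log2 fold changes between memory-like and resting cells of -2.38 (adjusted p = 0.0599). Its adjusted p was 9.46e-10 without the filter on low counts, and 5.29e-06 and 0.00114 without the female and the male library labelled wild type. It was 0.11 and 0.883 without the female and the male library labelled Irf5-/-, so single libraries decided this call.

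**Figure D4:**
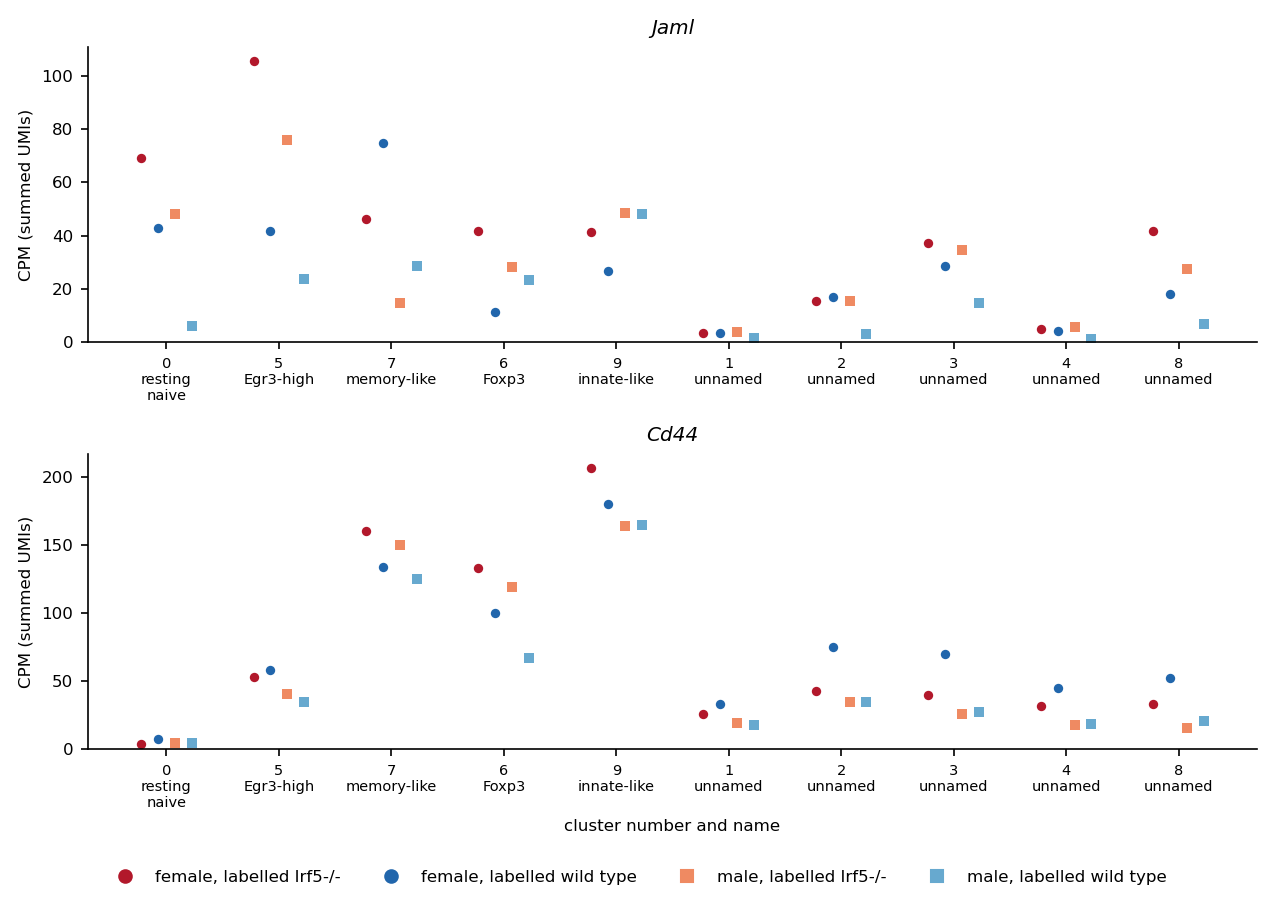
CPM of summed UMIs without TMM scaling (vertical axes) of Jaml (top) and Cd44 (bottom) in the 10 clusters of CD4 T-like cells (horizontal axes, cluster number and name), with 1 point per library, coloured by label and shaped by sex. In resting cells Jaml ranges from 6.1 CPM in the male library labelled wild type to 69.3 CPM in the female labelled Irf5-/-, and in clusters 1 to 4 Cd44 is highest in the female library labelled wild type.

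By sex, 2 of the 10 genes were lower in the male libraries, among 155 called of 12382 (1.25%). Cd44 was 42.5 and 52.5 CPM in the female libraries and 31.5 and 27.6 CPM in the male ones, with a log2 fold change of male over female of -0.679 (SE 0.103, edgeR adjusted p = 1.10e-03). Jaml had -0.792 (SE 0.156, edgeR adjusted p = 0.0102), and here the sexes overlapped. The Cd44 change kept its sign without each library in turn, from -0.842 to -0.527, but was not called without the female library labelled Irf5-/- (adjusted p = 0.254) or the female labelled wild type (0.839). The Jaml change was not called without the female library labelled Irf5-/- (-0.416, adjusted p = 0.862), the female labelled wild type (-0.934, adjusted p = 0.988) or the male labelled wild type (-0.128, adjusted p = 1), and was -1.74 (adjusted p = 5.3e-28) without the male labelled Irf5-/-.

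In free RNA, in droplets without a cell, both genes were higher in the female libraries. There Cd44 was 67.2 and 62.9 CPM in the female and 34.4 and 27.9 CPM in the male libraries, and Jaml was 19.96 and 20.61 against 13.1 and 8.30 CPM, so that the sexes did not overlap for Jaml as they did in cells. Free RNA made up an estimated 0.679% to 3.40% of the UMIs of CD4 T-like cells, and at that share it would give at most 2.14 CPM of Cd44. With 1 library for each sex and label, sex cannot be told apart from any other property of these libraries.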

How the data were processed

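Droplet 3′ single-cell RNA-seq was made from 4 libraries of stimulated splenic CD4 T cells, grouped by the genotype and sex in the labels. For every barcode, empty droplets included, the deposited matrices give raw UMI counts by gene. Cell Ranger 6.0.2 and build mm10 are named in the submitters' processing notes, while the matrix headers name version 4. Whether counting used strand is not given in the sources used here.

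Cells had at least 2000 UMIs, 500 genes and at most 10% mitochondrial UMIs. The highest doublet scores of scrublet (scanpy 1.11.5) were removed at 0.8% per 1000 cells, since its own threshold marked only 0.0486% in 1 library. The cells kept were clustered on 2000 variable genes without the 104 adhesion genes listed (30 principal components, 15 neighbours, leidenalg 0.10.2, resolution 1). An earlier neighbour graph that could not be repeated exactly was replaced after its results had been seen. Clusters were named from marker lists by a rule set after the clusters were seen: at least 3 markers among 30 leading genes and 2 among 10, and, for Egr3-high, Egr3 itself among the 10. A cluster of 2559 cells led by Ccl4, Tnfsf11 and Il2 had 5 Egr3-high markers among 10 and 10 among 30 but not Egr3 among the 10, and stayed unnamed. A cluster of 133 cells with haemoglobin and immunoglobulin genes was left out.

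UMI counts were summed per library, or per library and class, and tested with edgeR 4.0.16 (TMM, filterByExpr, quasi-likelihood, Benjamini-Hochberg over all genes tested, called at 0.05), with a sex term and 2 libraries per label; DESeq2 1.42.0 was the alternative. Class by label terms were tested with library and class in the model. A copy of the edgeR fit by label over all cells was run on simulated counts with known changes. The fits within classes, those of class by label, DESeq2 and those leaving out a library were not checked in this way. Fits that leave out 1 library have no sex term for the label, and no label term for sex; those without Foxp3 or innate-like cells, and those leaving out a library for sex and for class by label, were added after the data were seen. Intervals cover counting error only. The 10 genes and all lists were chosen with earlier results of these data known. All 10 are named; further adhesion genes are named where called by label, or among the 3 highest and 3 lowest against resting cells at 20 CPM or more; some genes that these rules name are not reported here. Likeness is Pearson's correlation of log2(CPM + 1) over class and library sums.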

Additional observations from a re-analysis of the deposited data

Results flagged for a closer look

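Over all CD4 T-like cells, 2 of the 10 genes had opposite signs by genotype label in the 2 sexes with both changes larger than the SE of the fit. Itga4, Itgb1, Itgb2 and Itga6 also had opposite signs, but not with both changes above the SE. Each change is from 1 library against 1, and the difference between the sexes was not tested. The log2 fold change of Icam1 (labelled Irf5-/- over labelled wild type) was -0.18 between the female and 0.22 between the male libraries. That of Cd44 was -0.31 between the female and 0.19 between the male libraries.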

How the results depend on the processing

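With 2 libraries per label, the counts of genes called depended strongly on the setting; the cause was not tested, except that fewer libraries or cells enter some fits. By label over all CD4 T-like cells, 160 genes were called, against 31 with DESeq2, 10 without the sex term, 47 with equal cells and depth, 79 without Foxp3 cells, 100 without innate-like cells and 35 to 319 without each library in turn. Of the 10 adhesion genes 1 was called, against 0 with DESeq2 and 0 without the sex term (0 to 2 without each library), and of the further adhesion genes 4, against 0 and 0 in the same settings, 1 with equal cells and depth and 2 without Foxp3 cells (0 to 9). By sex, 155, 2 and 0 became 8 to 363, 0 to 3 and 0 to 4 without each library. In resting cells, 76, 1 and 0 became 4, 0 and 0 with DESeq2, 3, 0 and 0 without the sex term, and 3 to 332, 0 to 2 and 0 to 5 without each library; further adhesion genes called were 1 without the filter on low counts and 2 with classes by marker UMIs. In Egr3-high cells, 17 genes became 4 with DESeq2, 82 without the filter, 2 without the sex term (0 of the 10), 5 with classes by marker UMIs and 2 to 342 without each library (0 to 2 of the 10, 0 to 3 further). In memory-like cells, 40 became 4 with DESeq2, 66 without the filter, 6 without the sex term and 10 to 58 without each library (0 to 2 of the 10); the 1 further gene became 0 with DESeq2, without the sex term and without each library. In Foxp3 cells, 6 became 2 with DESeq2, 23 without the filter, 2 with classes by marker UMIs and 11 to 84 without each library (0 to 1 of the 10, 0 to 4 further). For the class by label terms, 6 became 112 without the filter (2 of the 10) and 0 to 152 without each library (0 to 1 of the 10, 0 to 3 further); Jaml had also passed with the neighbour graph that was replaced.

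Against resting cells, genes of the 10 higher in Egr3-high cells became 1, and those lower 0, with classes by marker UMIs. Those lower in memory-like cells, 4, became 1 at Leiden resolution 2, 1 in thinned cells, 1 without TMM factors and 2 to 4 without each library. In Foxp3 cells, those lower became 0 with classes by marker UMIs and 1 without TMM factors, those higher became 5 without TMM factors, and Itgb7 turned from -1.27 to 0.207 with classes by marker UMIs. Memory-like cells by marker UMIs were too few to give a value, with 3 to 11 cells per library. Of 260 log2 differences by class under the alternatives, 207 stayed within 1 SD, 52 moved further and 1 was counted as reversed. A change of sign was counted as reversed only where the gene had been called apart from resting cells. Sign changes of other genes, such as Itga4 and Jaml in memory-like cells, fall in the first 2 groups. Of 685 values of single genes by label or sex, 621 kept their side of the threshold, 49 fell below and 15 rose above it.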

Other observations

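A cluster of 287 innate-like cells, led by Cxcr6, Xcl1, Il4 and Zbtb16, held Cd44 at 207, 180, 164 and 165 CPM in the order female labelled Irf5-/-, female labelled wild type, male labelled Irf5-/- and male labelled wild type (CPM without TMM scaling). Icam1 was 252, 447, 314 and 213 CPM there. The alpha chains Itga6 and Itga4 were below their levels in resting cells, with Itga6 at 5.06 to 20.02 CPM and Itga4 at 20.6 to 55.7 CPM, while Selplg was 180 to 295 CPM. Jaml was 41.3, 26.7, 48.7 and 48.1 CPM in this cluster, from 28, 4, 33 and 19 UMIs. The female library labelled wild type gave 22 of these cells.

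Over 16 sums of 4 classes and 4 libraries, the 1 or 2 genes most alike each of the 10 among 5389 genes outside the adhesion lists are given as a description; the sums share libraries, and each class gives 4 of them. Cd44 was most like Hk2 (Pearson's r = 0.986) and Sfxn1 (0.983), Itga4 like Slamf6 (0.986) and Pbxip1 (0.981), and Itgb1 like Pfkp and Trps1 (both 0.975). Itga6 was most like Phf3 (0.974), Itgb7 like Wasf2 (0.968) and Uqcc3 (0.959), and Icam1 like Pcgf5 (0.965) and Nbn (0.951). Itgb2 was most like AI504432 (0.967) and Spry1 (0.948), Selplg like Gbp5 (0.957) and Crybg1 (0.954), and Itgal like Smco4 and Zeb2 (both 0.937). Jaml had no close match (Lgals3bp 0.750, Capza2 0.737). Among the 10 themselves, Itgal and Itgb2, the chains of LFA-1, had r = 0.903, and Itga4 and Itgb7 had 0.798. Genes that form no pair were as alike, with Itgb1 and Itgal at 0.901, Cd44 and Itgb2 at 0.878, and Itga6 and Itgb7 at 0.764.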
